A study of Mus musculus with 3 samples.

Results

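The genes Cyp7b1, Gramd1b, Bcat1, Fgf1, Rnf24 and Sox2ot were described across the libraries and cell types of a mouse kidney single-cell RNA study. They were chosen by symbol as genes of the late proximal tubule, and several of them were picked because their level was lower in the library of old mice given D+Q than in the library of old mice given vehicle. All 6 symbols were found among the 33696 genes of the files, each under 1 identifier. The kidneys came from male mice in 3 groups: old mice of 20 months treated with D+Q (old D+Q), old mice of 20 months given vehicle (old vehicle), and young mice of 3 to 4 months (young). The series describes the treatment as senolytic. The labels do not spell out D+Q, an abbreviation commonly used in that field for dasatinib plus quercetin. No genetic modification is named for any group, and the labels do not say whether a library came from 1 mouse or from pooled mice. Kidneys were digested with collagenase II, strained, cleared of red blood cells and profiled with the MobiCube kit, which reads transcripts at their 3′ end. There was 1 library per group, so no difference between groups could be tested against the spread between mice, and every interval below is a 95% interval that covers counting error only.

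The proximal tubule of the nephron reabsorbs most of the filtered solutes and is divided along its length into the S1, S2 and S3 segments, of which S3 is the last and runs down into the outer medulla. Cyp7b1 is the oxysterol 7-alpha-hydroxylase, an enzyme of the alternative bile acid pathway that also acts on steroids. Gramd1b, also called Aster-B, carries cholesterol from the plasma membrane to the endoplasmic reticulum. Bcat1 is the cytosolic branched-chain amino acid transaminase, which takes the amino group from leucine, isoleucine and valine. Fgf1, the acidic fibroblast growth factor, is a ligand of the FGF receptors. Rnf24 is a membrane protein with a RING finger, a fold found in ubiquitin ligases. Sox2ot is a long noncoding RNA whose gene overlaps that of the transcription factor Sox2.

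The files held 8037 old D+Q, 6027 old vehicle and 8615 young barcodes, with a median of 2299, 1883 and 2391 counts per barcode. After barcodes with over 50% mitochondrial counts and those with the highest doublet scores were left out, 7424 old D+Q, 5701 old vehicle and 7734 young cells remained, with 19195023, 13122089 and 21688581 counts. The 28 to 38 barcode sequences that each pair of libraries shared were at most 0.630% of a library. The old vehicle library was thus the shallowest of the 3, in cells and in counts per cell. The median mitochondrial share of the kept cells was 6.02% in old D+Q, 4.45% in old vehicle and 6.02% in young.

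A pair of cell sets stood for the late proximal tubule, and none of the 6 genes was used to build either. The first was an S3 gate: cells with proximal tubule markers whose mean standardised level of 10 S3 markers exceeded that of 7 S1 markers by at least 1.2. It held 450 old D+Q, 438 old vehicle and 496 young cells, which were 8.39%, 10.1% and 9.50% of the proximal tubule gate. The score is continuous, and 316 old D+Q, 254 old vehicle and 235 young cells lay within 0.1 of the limit. The second was cluster 9 of 25 Leiden clusters computed without the 6 genes, the cluster with the highest S3-minus-S1 score. It held 755 old D+Q, 804 old vehicle and 950 young cells, which were 10.2%, 14.1% and 12.3% of the kept cells of the same libraries. Its share was lowest in old D+Q and highest in old vehicle. Of the S3 gated cells, 66.7% in old D+Q, 64.4% in old vehicle and 80.2% in young lay in cluster 9. The S3 gate in turn held 39.7% of the cluster in old D+Q, 35.1% in old vehicle and 41.9% in young. The rest of the proximal tubule gate thus also held cluster 9 cells, at 8.55% in old D+Q, 12.7% in old vehicle and 10.9% in young.

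The S3 label of cluster 9 was set beside the markers. Because the score of these same markers picked the cluster, their levels describe it and cannot check the label. Relative to the other proximal tubule gated cells, Acsm3 was 4.05-fold, Serpina1f 3.70-fold, Slc7a13 3.39-fold, Slc22a7 3.20-fold, Slc6a18 2.92-fold, Atp11a 2.90-fold and Slc5a8 2.24-fold higher in it, and all 7 S1 markers were lower, Slc5a12 at 0.0437-fold. The other 3 S3 markers did not follow the label: Slc22a30 was 1.32-fold higher, Cyp4b1 was 0.346-fold, and Slc22a13 had 0 counts. Levels are given in CPM, the counts of a gene scaled to the total counts of the same library in the same cell set. The summed S1 markers in cluster 9 came to 784 CPM in old D+Q, 979 CPM in old vehicle and 780 CPM in young. Of 16 leukocyte markers, Csf1r, the macrophage growth factor receptor, had 173 CPM in old D+Q, 169 CPM in old vehicle and 124 CPM in young in this cluster, while the other 15 together came to 14.1, 21.2 and 13.9 CPM. A list of 8 other late proximal tubule genes, used below, was mixed in the comparison with the other proximal tubule gated cells. Slc22a19 was 8.36-fold, Napsa 2.98-fold, Agt 2.31-fold, Slc3a1 1.64-fold and Slc1a1 1.54-fold higher in the cluster. Slc5a1 at 1.13-fold, Akr1c21 at 1.03-fold and Kap at 0.887-fold differed little. The cluster is called S3-like on its 7 raised markers, which are part of the score that picked it.

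All 6 genes were concentrated in cluster 9. Against all other kept cells, with the 3 libraries together, the level in the cluster was 17.7-fold higher for Bcat1, 15.7-fold for Cyp7b1, 10.1-fold for Rnf24, 9.19-fold for Sox2ot, 8.35-fold for Gramd1b and 7.10-fold for Fgf1. When all genes were ordered by that fold after 5 CPM had been added to both levels, Cyp7b1 stood at rank 1, Bcat1 at rank 3, Rnf24 at rank 8, Gramd1b at rank 10, Sox2ot at rank 12 and Fgf1 at rank 14. These places are a description, since the genes were chosen for this segment. The cluster held 10.3% of all counts of the old D+Q library, 13.3% of the old vehicle library and 12.0% of the young library. It held 67.2% of the Cyp7b1 counts in old D+Q, 69.8% in old vehicle and 64.9% in young. For Fgf1 it held 46.5% in old D+Q, 45.5% in old vehicle and 54.4% in young.

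**Figure D1:**
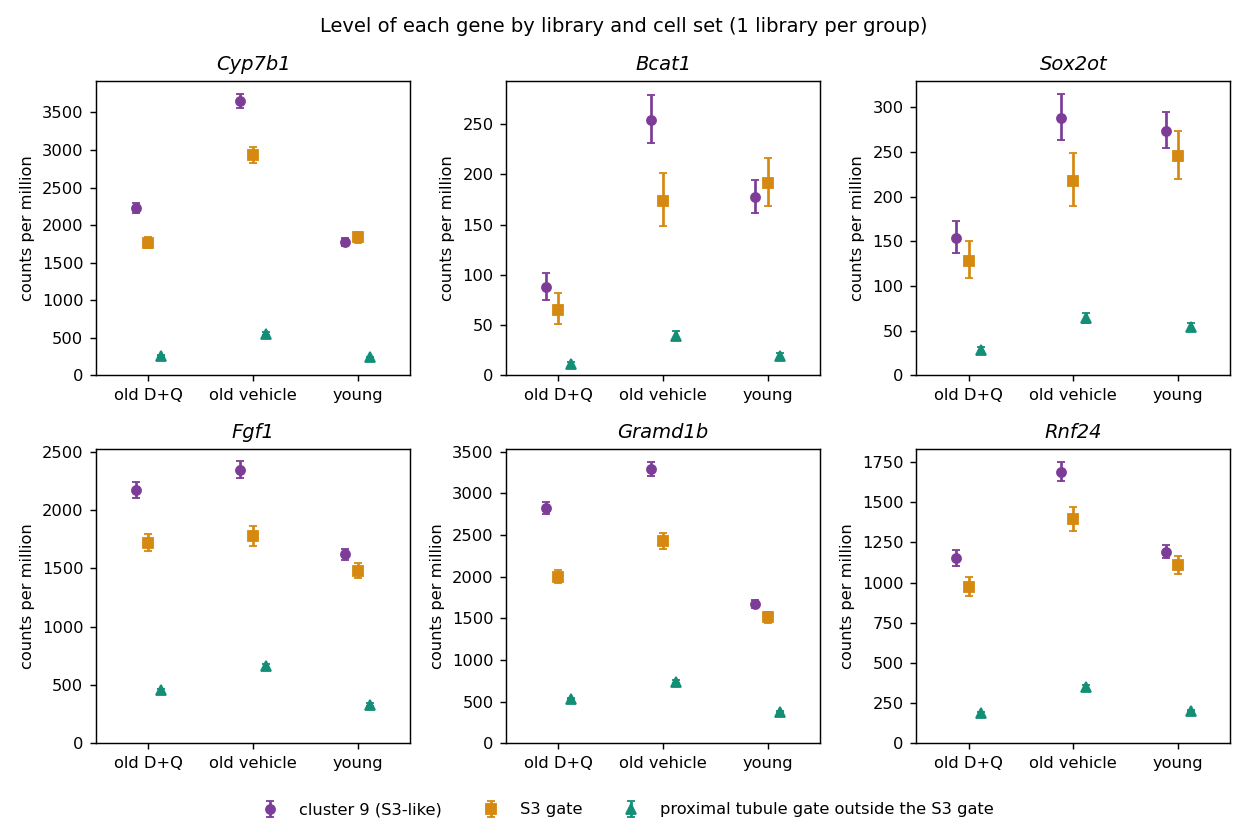
Level of each of the 6 genes in CPM (y axis, from 0) in the old D+Q, old vehicle and young libraries (x axis), in cluster 9 (circles), the S3 gate (squares) and the rest of the proximal tubule gate (triangles); bars are 95% Poisson intervals and there is 1 library per group. Bcat1 and Sox2ot are lowest in old D+Q in each set, while Fgf1 and Gramd1b lie above young in both old libraries. The triangles include the cluster 9 cells that lie outside the S3 gate.

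Cyp7b1, the oxysterol hydroxylase, had 2233 CPM (2168 to 2300) in old D+Q, 3652 CPM (3562 to 3742) in old vehicle and 1775 CPM (1724 to 1827) in young cells of cluster 9. The old vehicle library was the high one, and the old D+Q library lay between it and young. The log2 ratio of old D+Q to old vehicle was -0.71 (-0.77 to -0.65), that of old D+Q to young 0.33 (0.27 to 0.39), and that of old vehicle to young 1.04 (0.99 to 1.10). In the S3 gate the level was 1768 CPM in old D+Q, 2929 CPM in old vehicle and 1839 CPM in young, so that old D+Q and young had overlapping intervals there. The levels in the rest of the proximal tubule gate were 257 CPM in old D+Q, 555 CPM in old vehicle and 241 CPM in young. Cluster 9 cells were 8.55%, 12.7% and 10.9% of that rest in the same order, and their part in these levels was not tested.

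Gramd1b, the cholesterol carrier, had 2827 CPM (2753 to 2902) in old D+Q, 3297 CPM (3212 to 3383) in old vehicle and 1672 CPM (1622 to 1722) in young cells of cluster 9. Both old libraries stood above young, and old D+Q was the lower of them. Its log2 ratio was -0.22 (-0.28 to -0.17) for old D+Q over old vehicle, 0.76 (0.70 to 0.82) for old D+Q over young and 0.98 (0.92 to 1.04) for old vehicle over young. In S1 gated cells the intervals of the old libraries overlapped, with 432 CPM (412 to 453) in old D+Q and 435 CPM (410 to 462) in old vehicle, against 257 CPM (242 to 273) in young. The log2 ratio of old D+Q to old vehicle in those cells was -0.01 (-0.12 to 0.10).

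Bcat1, the branched-chain transaminase, had 87.8 CPM (75.3 to 102) in old D+Q, 255 CPM (232 to 280) in old vehicle and 177 CPM (162 to 194) in young cells of cluster 9, from 174, 444 and 461 counts. The old D+Q library was the lowest of the 3 and did not overlap either of the others. The log2 ratio was -1.54 (-1.80 to -1.28) for old D+Q over old vehicle and -1.01 (-1.27 to -0.76) for old D+Q over young. That of old vehicle over young was 0.52 (0.33 to 0.71) in the cluster, but -0.14 (-0.43 to 0.14) in the S3 gate, where Bcat1 had 65.4 CPM in old D+Q, 174 CPM in old vehicle and 192 CPM in young. The position of old D+Q below both other libraries was thus shared by the 2 cell sets. The S3 gate interval of old vehicle over young included 0, so no order of these libraries is read there. Among S3 gated cells that lay in cluster 9, that ratio was 0.16 (-0.14 to 0.45).

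Sox2ot, the noncoding RNA, had 154 CPM (137 to 172) in old D+Q, 289 CPM (264 to 315) in old vehicle and 274 CPM (254 to 294) in young cells of cluster 9. As for Bcat1, old D+Q stood below the other 2, which overlapped each other. The log2 ratio was -0.91 (-1.12 to -0.70) for old D+Q over old vehicle, -0.83 (-1.03 to -0.63) for old D+Q over young and 0.08 (-0.09 to 0.24) for old vehicle over young. Sox2 itself, the gene that Sox2ot overlaps, had 0 counts in all 3 libraries, which allows up to 0.156 CPM in old D+Q, 0.229 CPM in old vehicle and 0.138 CPM in young at 3 counts per library. No source used here says whether counting used the strand, so reads of overlapping genes cannot be told apart.

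Fgf1, the growth factor, had 2171 CPM (2107 to 2237) in old D+Q, 2347 CPM (2275 to 2420) in old vehicle and 1621 CPM (1572 to 1671) in young cells of cluster 9. Both old libraries were above young and close to each other. Its log2 ratio of old D+Q to old vehicle was -0.11 (-0.17 to -0.05) in cluster 9 and -0.05 (-0.14 to 0.05) in the S3 gate, where it was above 0 under 3 of the alternatives (0.01 with size factors, 0.04 with TMM and 0.02 with a stricter gate). In the whole proximal tubule gate that ratio was -0.47 (-0.52 to -0.42), on 568 CPM in old D+Q and 786 CPM in old vehicle, against 449 CPM in young. The ratio was larger outside the S3 gate, at -0.54 (-0.60 to -0.49), where Fgf1 had 456 CPM in old D+Q, 664 CPM in old vehicle and 333 CPM in young. Cluster 9 cells were 13.4% of the whole gate in old D+Q, 18.0% in old vehicle and 17.5% in young. Outside the S3 gate they were 8.55%, 12.7% and 10.9% in the same order. Their part in these ratios was not tested.

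Rnf24, the RING finger protein, had 1152 CPM (1105 to 1200) in old D+Q, 1690 CPM (1630 to 1753) in old vehicle and 1192 CPM (1151 to 1235) in young cells of cluster 9. Old D+Q and young overlapped, and old vehicle stood above both. The log2 ratio was -0.55 (-0.63 to -0.47) for old D+Q over old vehicle, -0.05 (-0.13 to 0.03) for old D+Q over young and 0.50 (0.43 to 0.58) for old vehicle over young. In the S3 gate the ratio of old D+Q to old vehicle was -0.52 (-0.63 to -0.40). With a stricter S3 gate, which kept 2.07% of old D+Q and 2.81% of old vehicle proximal tubule cells, it was 0.07, the only one of 11 alternatives under which its sign turned. On the mean of each cell's own CPM it was -0.64, past 1.5-fold.

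Promoter sequence from the RefSeq table (GRCm38.p6) was matched for 2 of the 6 genes, Bcat1 and Rnf24. The 250 bases before the outer annotated start of Bcat1 and before the start of Rnf24 are given because both genes were 1.5-fold lower in old D+Q than in old vehicle over the proximal tubule gate, and capitals mark matches to the motifs searched.
Bcat1, chr6:145076158-145076407, minus strand: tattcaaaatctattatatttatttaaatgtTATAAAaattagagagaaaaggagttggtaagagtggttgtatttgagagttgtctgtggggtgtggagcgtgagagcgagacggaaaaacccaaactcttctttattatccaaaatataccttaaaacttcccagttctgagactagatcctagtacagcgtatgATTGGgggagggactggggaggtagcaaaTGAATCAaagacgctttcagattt
Rnf24, chr2:131352893-131353142, minus strand: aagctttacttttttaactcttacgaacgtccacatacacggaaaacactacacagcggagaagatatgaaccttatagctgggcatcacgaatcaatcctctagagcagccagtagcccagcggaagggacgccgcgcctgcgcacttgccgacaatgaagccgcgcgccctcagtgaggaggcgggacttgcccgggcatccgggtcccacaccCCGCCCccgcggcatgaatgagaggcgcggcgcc
The Bcat1 stretch had 37.6% G and C and 5 CpG, that of Rnf24 59.6% and 23 CpG, against medians of 52.4% and 6 CpG over 32851 promoters. The motifs were searched on both strands and may overlap. In the Bcat1 stretch, TATAAA, the TATA box, lay 219 to 214 bases before the start, and 12.4% of all promoters of this length hold it. The CCAAT box, met in 33.8%, lay on the other strand 53 to 49 bases before the start. The motif TGANTCA, a looser form of the AP-1 site in which N is any base, met in 6.75%, lay 24 to 18 bases before it. The match was TGAATCA, whose middle A is not the C or G of the AP-1 consensus, so it is not called an AP-1 site. In the Rnf24 stretch, the GC box GGGCGG, met in 32.7%, lay on the other strand 34 to 29 bases before the start. The HNF4A core CAAAGTC, met in 3.84%, and the HNF1 motif GTTAAT, met in 6.43%, are not among these letters. A second annotated start of Bcat1 held none of the 6 motifs, and counts from the 3′ end of transcripts do not tell the starts apart.

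Counted at 1.5-fold over all kept cells, 4 of the 6 genes were lower in old D+Q than in old vehicle, beside 1.75% of the 12001 genes measured. Over the proximal tubule gate, 4 of the 6 genes were lower (Cyp7b1, Bcat1, Sox2ot and Rnf24), beside 2.61% of all 11155 genes measured there. In the S3 gate it was 3 of 6 (Cyp7b1, Bcat1 and Sox2ot), beside 9.91% of 9635 genes, and the same 3 in cluster 9, beside 7.46% of 10884 genes. In each of these sets all 6 ratios were below 0, and 0 of the 6 were 1.5-fold higher. The share of genes higher was 1.46% over all kept cells, 1.54% in the proximal tubule gate, 8.33% in the S3 gate and 7.53% in cluster 9. The median log2 ratio of the 6 was -0.96 in the proximal tubule gate, -0.62 in the S3 gate and -0.63 in cluster 9, against -0.07, -0.06 and -0.05 over all genes measured. Nothing is read from these counts, because several of the genes were picked on this contrast.

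Against the young library, 2 of the 6, Bcat1 and Sox2ot, were at least 1.5-fold lower in old D+Q. That count was the same over all kept cells (background 2.73% of genes), in the proximal tubule gate (2.82%), in the S3 gate (8.93%) and in cluster 9 (7.21%). Gramd1b was at least 1.5-fold higher in old D+Q than in young in cluster 9 (background 7.18%). None of the 6 was 1.5-fold higher over all kept cells (background 1.97%), in the proximal tubule gate (2.49%) or in the S3 gate (8.14%). The 6 therefore fell into 3 patterns of level in cluster 9: Bcat1 and Sox2ot had less in old D+Q than in young, Rnf24 had intervals that overlapped between these libraries, and Cyp7b1, Fgf1 and Gramd1b had more. Old D+Q against young shares the old D+Q library with the contrast used to pick genes, so this is not independent of that choice.

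In the library of old mice given vehicle, 5 of the 6 genes were at least 1.5-fold higher than in young over all kept cells, beside 3.56% of genes: all but Sox2ot. Over the proximal tubule gate 4 of the 6 were higher (Cyp7b1, Fgf1, Gramd1b and Rnf24), beside 4.56% of genes. In the S3 gate and in cluster 9 these were 2 of 6, Cyp7b1 and Gramd1b, beside 10.9% and 9.13% of genes. None was 1.5-fold lower in old vehicle, beside 3.35% of genes over all kept cells, 3.18% in the proximal tubule gate, 9.79% in the S3 gate and 8.82% in cluster 9. This comparison shares the old vehicle library with the contrast used to pick genes. The cluster 9 share moved the same way, at 14.1% of old vehicle and 12.3% of young cells, and its part in the whole-gate values was not tested. The old vehicle to young ratios were above 0 for all 6 genes in the cluster, with the interval of Sox2ot including 0. There were 2 of the 6 below 0 in the S3 gate, Bcat1 at -0.14 (-0.43 to 0.14) and Sox2ot at -0.17 (-0.43 to 0.08).

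Along the S3-minus-S1 score, split into 8 bins of proximal tubule gated cells with 488 to 743 cells per library in each, all 6 genes had their highest level at the S3 end in every library. In the last bin, Cyp7b1 had 1627 CPM in old D+Q, 2577 CPM in old vehicle and 1786 CPM in young, and in the first bin 30.2, 35.9 and 34.1 CPM in the same order. Bcat1 in the last bin had 61.3 CPM in old D+Q, 153 CPM in old vehicle and 183 CPM in young. In the bin before it, Bcat1 had 22.7 CPM in old D+Q, 119 CPM in old vehicle and 64.8 CPM in young. The young library thus showed a steeper last step for Bcat1 than the old vehicle library did, and old D+Q was the lowest in both bins. Gramd1b was lower in bin 4 than in bin 1 in each library, with 336 CPM in old D+Q, 422 CPM in old vehicle and 218 CPM in young in bin 4 and 515 CPM in old D+Q, 484 CPM in old vehicle and 315 CPM in young in bin 1.

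**Figure D2:**
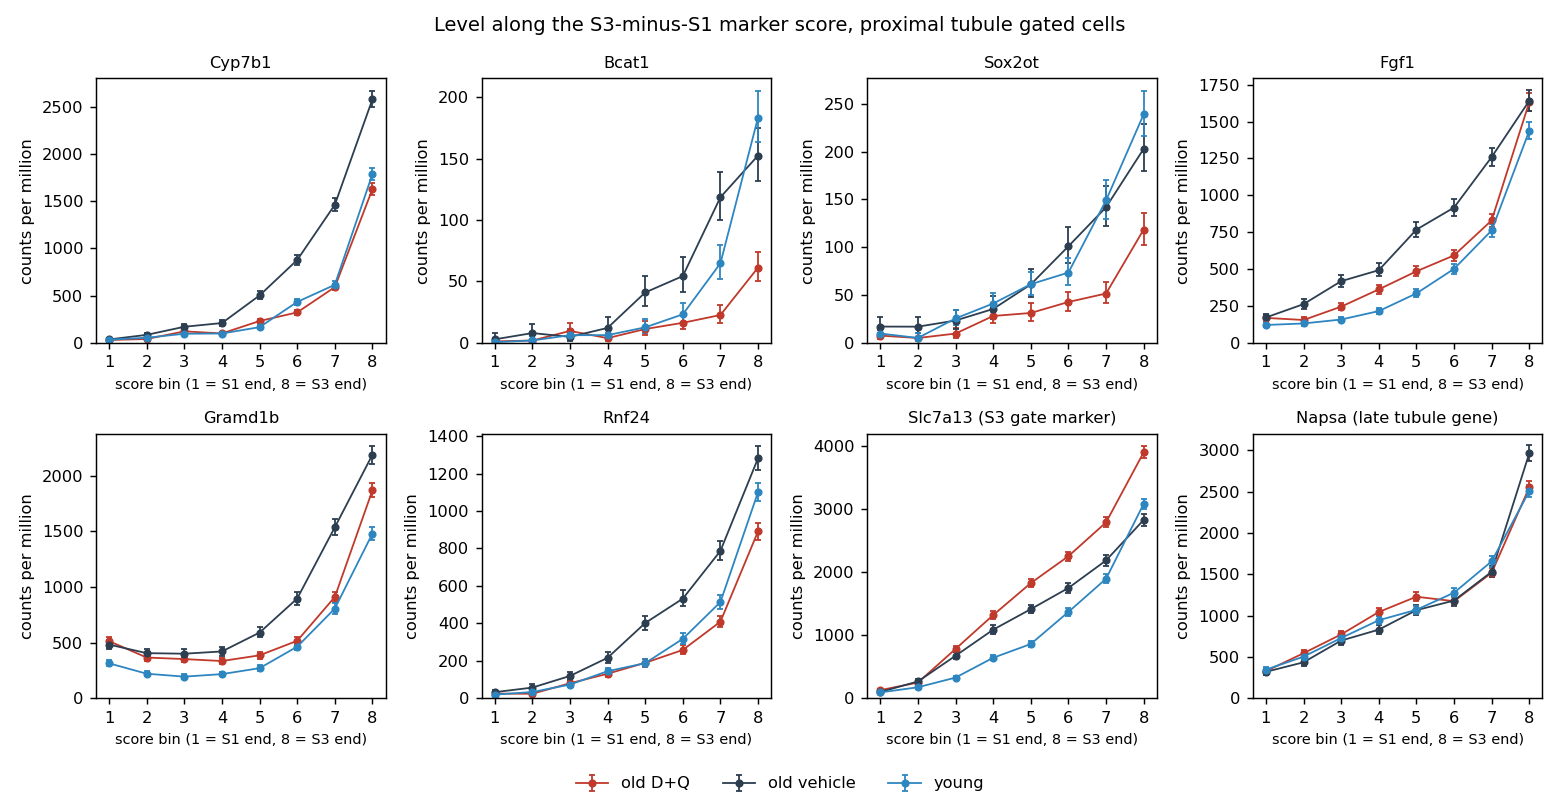
Level in CPM (y axis, from 0) over 8 bins of the S3-minus-S1 marker score (x axis, S3 end to the right) in proximal tubule gated cells, for the 6 genes, the S3 marker Slc7a13 and the late tubule gene Napsa, with 1 line per library and 95% Poisson intervals. The old vehicle line lies highest in the middle bins for Cyp7b1, Fgf1 and Rnf24, while Slc7a13 is highest in old D+Q in the last bin (3901 CPM, against 2830 CPM in old vehicle and 3084 CPM in young) and is itself one of the markers of the score. Napsa in that bin has 2551 CPM in old D+Q, 2965 CPM in old vehicle and 2506 CPM in young.

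The share of cells with at least 1 count was also lowest in old D+Q for Bcat1 and Sox2ot. With every cell thinned to 1000 counts, Bcat1 was seen in 6.09% (4.49 to 8.04%) of old D+Q, 17.8% (15.2 to 20.6%) of old vehicle and 12.3% (10.3 to 14.6%) of young cells of cluster 9. In endothelial gated cells the thinned share was 1.89% in old D+Q, 2.5% in old vehicle and 0.978% in young. Sox2ot was seen in 11.9% (9.70 to 14.4%) of old D+Q, 23.5% (20.6 to 26.6%) of old vehicle and 22.5% (19.9 to 25.3%) of young cells of the cluster after thinning, and in 1.89% of old D+Q, 2.5% of old vehicle and 2.20% of young endothelial cells. Before thinning, the cluster 9 shares were 13.6%, 25.2% and 22.3% for Bcat1 and 25.4%, 38.3% and 42.7% for Sox2ot, at median depths of 2513, 1896 and 2612 counts, in old D+Q, old vehicle and young. Cyp7b1 was seen in 67.9% of old D+Q, 79.9% of old vehicle and 58.8% of young cells of the cluster after thinning, and in 19.5% of old D+Q, 25.5% of old vehicle and 14.2% of young endothelial cells. Fgf1, by contrast, was seen in 81.6% of old D+Q and 83.3% of old vehicle cells, with overlapping intervals, against 71.6% of young cells, and its endothelial shares were 21.4% in old D+Q, 36.0% in old vehicle and 15.2% in young. The endothelial cells had median depths of 2546 counts in old D+Q, 2535 counts in old vehicle and 2591 counts in young.

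All 6 genes also gave counts in gated cells outside the proximal tubule, in thick ascending limb, distal convoluted tubule, connecting tubule and principal, endothelial and stromal cells. Some of these cells lay in cluster 9: 2.86% of thick ascending limb cells in old D+Q, 3.27% in old vehicle and 2.87% in young. In the same order, the shares were 3.75%, 3.66% and 3.56% for distal convoluted tubule, and 2.05%, 2.53% and 0% for connecting tubule and principal cells. Endothelial cells had 0%, 0% and 0.244%, and stromal cells 0% in each library. The part of cluster 9 cells in the class levels was not tested. Cyp7b1 in endothelial cells had 265 CPM (235 to 299) in old D+Q, 543 CPM (491 to 599) in old vehicle and 253 CPM (227 to 280) in young. That was 11.9% of the cluster 9 level in old D+Q, 14.9% in old vehicle and 14.2% in young. S1 gated cells, which belong to the same tubule, had less Cyp7b1 than endothelial cells: 48.4 CPM in old D+Q, 67.4 CPM in old vehicle and 46.5 CPM in young. Over the cell sets of the old vehicle library, the order of Cyp7b1 levels ran from cluster 9 through connecting tubule and principal cells (602 CPM, 495 to 725), endothelial (543 CPM), distal convoluted tubule (448 CPM, 390 to 512), thick ascending limb (395 CPM, 344 to 450) and stromal cells (301 CPM, 230 to 387) to S1 gated cells. Neighbours in that order from connecting tubule to stromal cells had overlapping intervals, while cluster 9 and S1 gated cells stood apart from theirs.

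Old D+Q was below old vehicle in endothelial cells too. The endothelial log2 ratio of old D+Q to old vehicle was -1.03 (-1.26 to -0.81) for Cyp7b1, -0.68 (-0.87 to -0.48) for Fgf1, -0.55 (-0.73 to -0.36) for Gramd1b, -0.54 (-0.81 to -0.26) for Rnf24, -1.16 (-2.16 to -0.20) for Bcat1 and -0.63 (-1.47 to 0.21) for Sox2ot. RNA released from tubule cells gives counts of this kind in droplets of other cells, and its part in the values outside the proximal tubule was not tested. Bcat1 in the distal convoluted tubule rested on 3 counts in old D+Q, 19 in old vehicle and 13 in young. Sox2ot in stromal cells had 1 count in old D+Q, 4 in old vehicle and 13 in young.

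**Figure D3:**
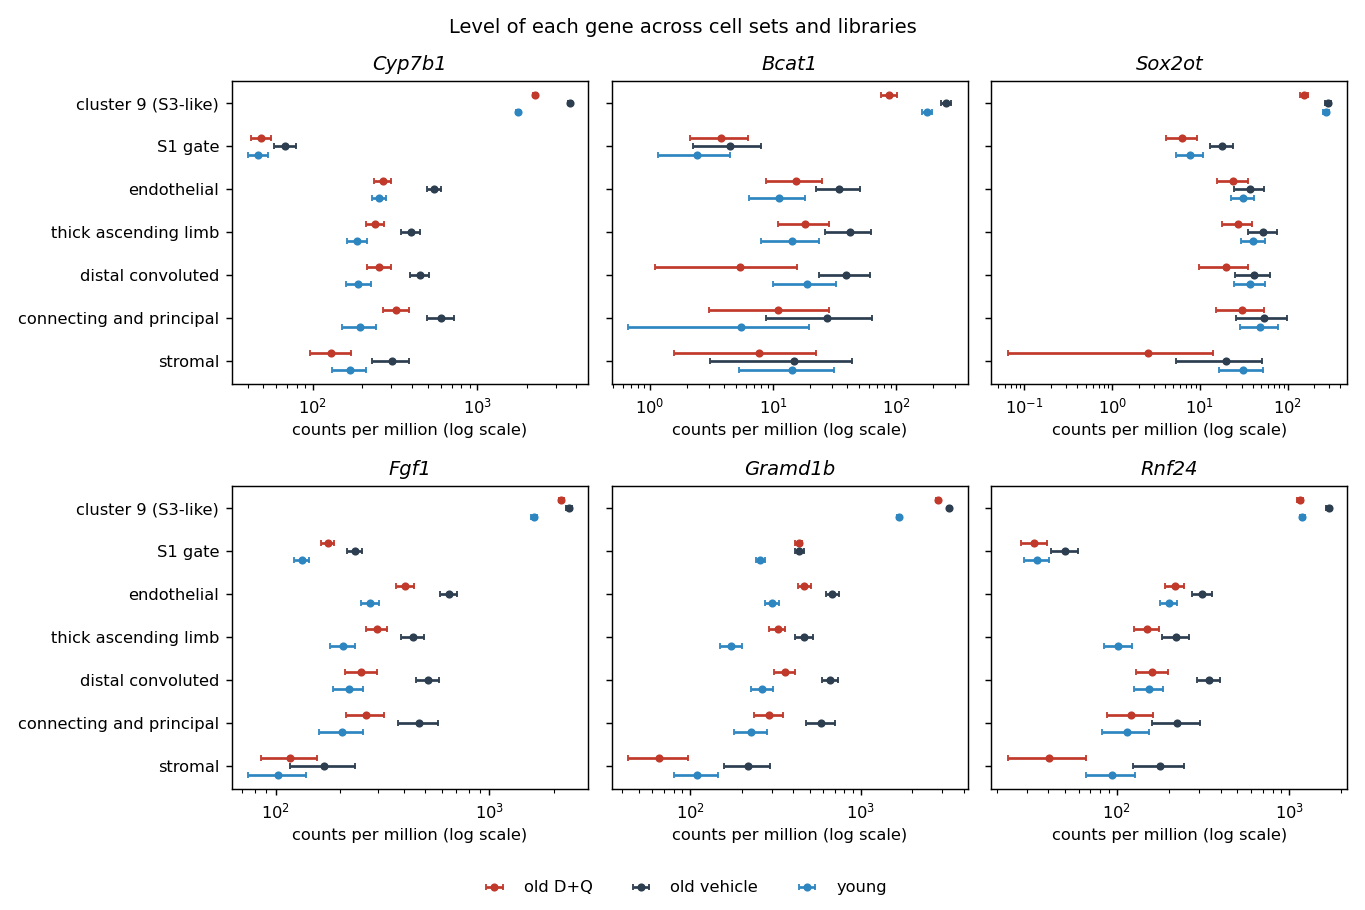
Level of the 6 genes in CPM (x axis, log scale) in cluster 9, S1 gated cells and 5 cell classes outside the proximal tubule (rows), with 1 point per library in the order old D+Q, old vehicle, young from top to bottom and 95% Poisson intervals. Cluster 9 is the highest row for each gene, and S1 gated cells lie below endothelial cells for Cyp7b1 (48.4 CPM, against 265 CPM in endothelial cells of old D+Q).

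The other late proximal tubule genes in cluster 9 went both ways between old D+Q and old vehicle: Slc7a13 and Cyp4b1 were higher in old D+Q, Acsm3, Atp11a and Akr1c21 were lower with intervals below 0, and several differed little. Slc7a13, a transporter of acidic amino acids and cystine in S3, had 4115 CPM in old D+Q, 2906 CPM in old vehicle and 2865 CPM in young, a log2 ratio of 0.50 (0.45 to 0.55) for old D+Q over old vehicle. Napsa, the aspartic protease napsin A, had 2689 CPM in old D+Q, 2707 CPM in old vehicle and 2375 CPM in young, a log2 ratio of -0.01 (-0.07 to 0.05) for the old pair. Napsa was lower in old D+Q in the S3 gate, with 2805 CPM in old D+Q, 3328 CPM in old vehicle and 2622 CPM in young, a log2 ratio of -0.25 (-0.32 to -0.18) for the old pair. Slc5a8, a monocarboxylate transporter, gave -0.01 (-0.11 to 0.09) for the same pair. Acsm3, an acyl-CoA synthetase, had 459 CPM in old D+Q, 625 CPM in old vehicle and 739 CPM in young, and Atp11a, a phospholipid flippase, had 1515, 1911 and 1253 CPM. The log2 ratio of old D+Q to old vehicle was -0.45 (-0.57 to -0.32) for Acsm3 and -0.33 (-0.41 to -0.26) for Atp11a. Of a list of 8 other late proximal tubule genes, 0 passed 1.5-fold in either direction between old D+Q and old vehicle, in cluster 9, in the S3 gate or in the proximal tubule gate. Over all genes, 7.46% were lower and 7.53% higher in cluster 9. These shares were 9.91% and 8.33% in the S3 gate, and 2.61% and 1.54% in the proximal tubule gate. The median log2 ratio of the 8 genes was -0.06 in cluster 9, -0.19 in the S3 gate and -0.07 in the proximal tubule gate. Over all genes it was -0.05, -0.06 and -0.07 in the same sets. The whole interval of the S3 gate ratio was below 0 for Kap (-0.27), Napsa (-0.25), Slc1a1 (-0.22), Slc3a1 (-0.21) and Akr1c21 (-0.18), so that part of the list went the same way as the 6 genes there. Akr1c21 was also lower in cluster 9, with 966 CPM in old D+Q, 1066 CPM in old vehicle and 752 CPM in young (-0.14, -0.24 to -0.05, for the old pair). In the proximal tubule gate the largest ratios of the list were those of Slc22a19, an organic anion transporter, with 56.6 CPM in old D+Q, 77.6 CPM in old vehicle and 104 CPM in young, and of Akr1c21, a steroid dehydrogenase, with 831, 968 and 885 CPM. Slc5a12, an S1 marker, had 87.8 CPM in old D+Q, 169 CPM in old vehicle and 55.8 CPM in young in cluster 9, and the part of S1 transcripts in the cluster's values was not tested.

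**Figure D4:**
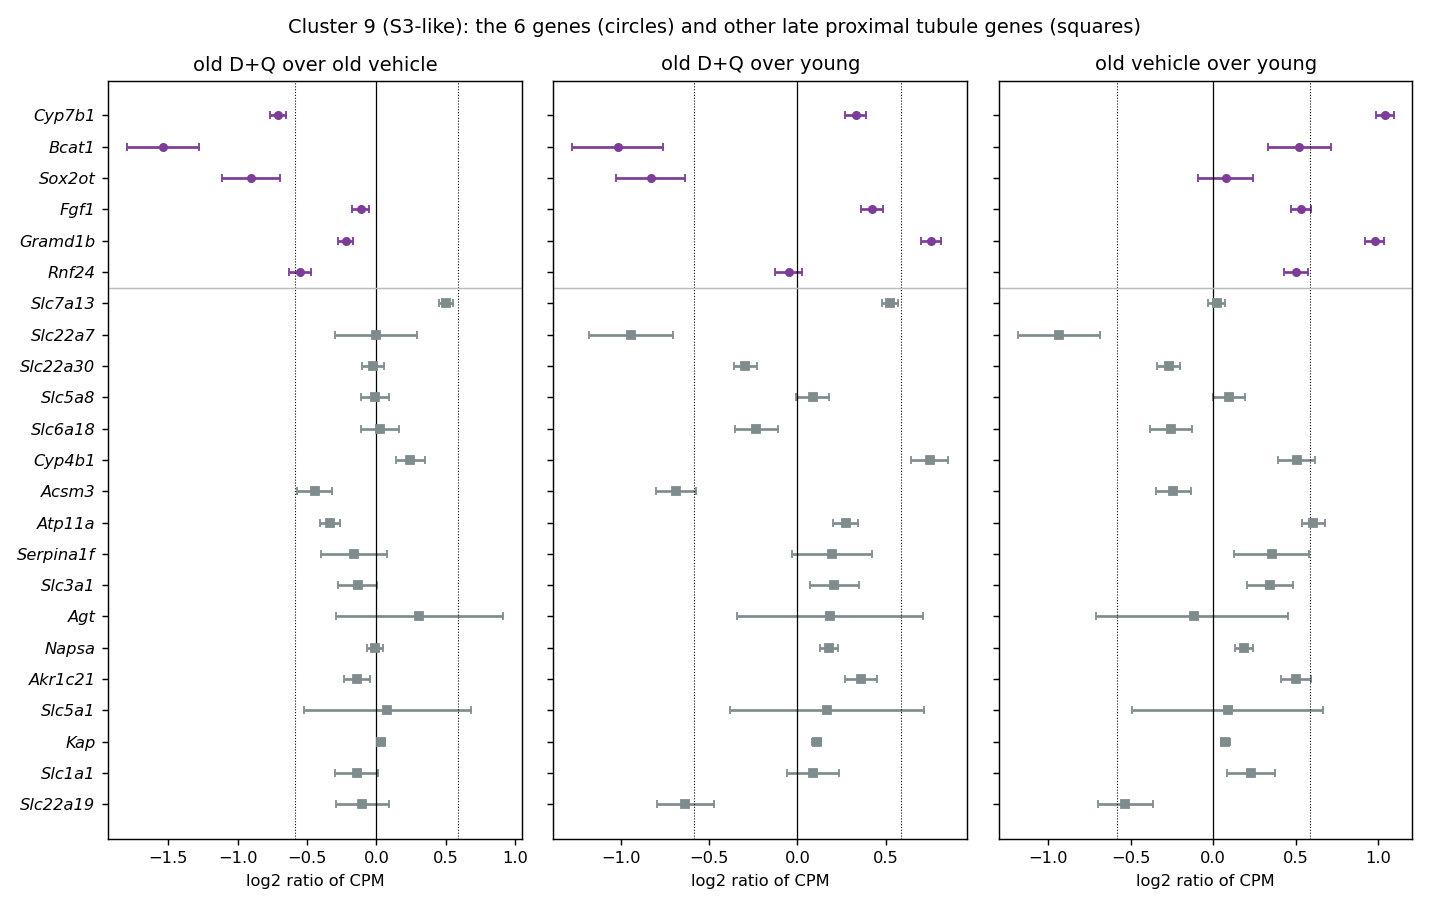
Log2 ratio of CPM in cluster 9 (x axis) for the 6 genes (circles, top) and other late proximal tubule genes (squares), in 3 comparisons: old D+Q over old vehicle, old D+Q over young, and old vehicle over young; bars are 95% intervals for counting error and dotted lines mark 1.5-fold. In the first panel all 6 circles lie below 0, while among the squares Slc7a13 is above it (0.50) and Acsm3 (-0.45), Atp11a (-0.33) and Akr1c21 (-0.14) are below it.

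Genes listed around Cyp7b1 were looked at in the proximal tubule gate. Of 20 genes of oxysterol and bile acid synthesis and bile acid handling, 12 were measured there. At 1.5-fold 0 passed between old D+Q and old vehicle, beside 2.61% of all genes lower and 1.54% higher, and the median log2 ratio was 0.01. The 2 with the largest ratios were Slc10a2, the sodium-dependent bile acid transporter, with 80.7 CPM in old D+Q, 55.4 CPM in old vehicle and 71.4 CPM in young (0.54, 0.39 to 0.70, old D+Q over old vehicle), and Slc51a, a subunit of the bile acid exporter, with 42.4, 33.9 and 33.6 CPM. In cluster 9 Slc10a2 was 1.5-fold higher (0.62, 0.37 to 0.88), while Nr1h4, the bile acid receptor FXR, and Slc51b, the other exporter subunit, were 1.5-fold lower, out of 13 measured genes and beside 7.53% of all genes higher and 7.46% lower there. Nr1h4 and Slc51b were singled out after their values were seen. None of the 3 passed 1.5-fold in the S3 gate, where the log2 ratio of old D+Q to old vehicle was 0.46 for Slc10a2, -0.45 for Nr1h4 and -0.42 for Slc51b. There 0 of 11 measured genes were lower and 2, Akr1d1 and Slc51a, were higher, beside 9.91% and 8.33% of all genes. Nr1h4 had 216 CPM in old D+Q, 344 CPM in old vehicle and 253 CPM in young in the cluster, a log2 ratio of -0.67 (-0.86 to -0.49) for the old pair, and in the whole gate that ratio was -0.17 (-0.23 to -0.12).

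Of 23 genes that break down branched-chain amino acids beside Bcat1, all 23 were measured in the proximal tubule gate and 0 passed 1.5-fold between old D+Q and old vehicle. Their median log2 ratio was -0.11, and over all genes in that gate 2.61% were lower and 1.54% higher at 1.5-fold. Of the 23, 3 were lower in the S3 gate and 2 higher, beside 9.91% and 8.33% of all genes, and in cluster 9 0 were lower and 1 was higher, beside 7.46% and 7.53%. Ppm1k, the phosphatase that activates the keto acid dehydrogenase, was the higher one in both sets, at 1.15 (0.31 to 2.04) in the S3 gate and 0.78 (0.24 to 1.34) in cluster 9, and was chosen after its values were seen. In the proximal tubule gate the largest ratios were those of Mccc2 and Bckdhb. Mccc2, a subunit of the leucine pathway carboxylase, had 58.1 CPM in old D+Q, 75.2 CPM in old vehicle and 55.8 CPM in young, a log2 ratio of -0.37 (-0.52 to -0.22) for the old pair. Bckdhb, a subunit of the branched-chain keto acid dehydrogenase, had 100.3 CPM in old D+Q, 115 CPM in old vehicle and 68.5 CPM in young. Bcat2, the mitochondrial transaminase, had 32.8 CPM in old D+Q, 32.6 CPM in old vehicle and 34.8 CPM in young; it was chosen as the paralog of Bcat1. Its log2 ratio of old D+Q to old vehicle was 0.01 (-0.21 to 0.22), where that of Bcat1 in the same cells was -1.74 (-1.97 to -1.50).

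Around Gramd1b, 13 of 17 listed genes of sterol carriage and cholesterol transport were measured in the proximal tubule gate. At 1.5-fold 0 passed, beside 2.61% of all genes lower and 1.54% higher. The median log2 ratio of the list was -0.15 for old D+Q over old vehicle. Abca1, the cholesterol exporter, had 33.6 CPM in old D+Q, 24.3 CPM in old vehicle and 47.3 CPM in young (0.47, 0.23 to 0.71), and Stard3, a sterol carrier of late endosomes, had 13.4, 10.1 and 13.7 CPM. Of 12 genes of this list measured in the S3 gate, 2 were lower and 2 higher, beside 9.91% and 8.33% of all genes. In cluster 9, 2 of 13 were lower and 1 higher, beside 7.46% and 7.53%. Stard3 was among the higher ones in both sets, at 1.09 (0.04 to 2.24) and 0.74 (0.05 to 1.45), and Npc1, the cholesterol exporter of lysosomes, among the lower ones, at -0.63 (-1.41 to 0.13) and -0.87 (-1.42 to -0.34). Npc1 was chosen after its values were seen. Osbpl8, an oxysterol-binding protein relative, in the proximal tubule gate had 713 CPM in old D+Q, 904 CPM in old vehicle and 766 CPM in young. Of 16 genes of cholesterol synthesis and uptake, 15 were measured and 1, Idi1, an isomerase of the pathway, was 1.5-fold lower in old D+Q, with 12.0 CPM in old D+Q, 18.3 CPM in old vehicle and 21.7 CPM in young. The median of this list was -0.26, and in cluster 9, where 4 were lower and 1 was higher at 1.5-fold, it was -0.22. Those calls were among 15 measured genes, beside 7.46% of all genes lower and 7.53% higher in the cluster, and 2.61% lower in the proximal tubule gate. Of 13 genes measured in the S3 gate 1, again Idi1, was lower and 0 were higher, beside 9.91% and 8.33% of all genes. The median of the list there was -0.01.

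Of the FGF ligands, receptors and co-receptors listed beside Fgf1, 11 of 20 were measured in the proximal tubule gate. Fgf12, an intracellular member of the family, was 1.5-fold lower in old D+Q, with 15.9 CPM in old D+Q, 25.7 CPM in old vehicle and 17.5 CPM in young. It was the only 1 of the 11 to pass, beside 2.61% of all genes lower and 1.54% higher in that gate. These shares also stand beside the counts of the next lists in the same gate. Fgf13 had 9.59 CPM in old D+Q, 13.0 CPM in old vehicle and 10.9 CPM in young. The receptor Fgfr3 had 30.6 CPM in old D+Q, 39.7 CPM in old vehicle and 44.0 CPM in young, a log2 ratio of -0.38 (-0.58 to -0.17) for the old pair. Of 10 feedback and target genes of FGF signalling, 6 were measured and 0 passed 1.5-fold; Dusp6, a phosphatase of the pathway, had 11.1 CPM in old D+Q, 8.50 CPM in old vehicle and 13.0 CPM in young, and Spred2, an inhibitor of it, had 66.1, 74.2 and 66.7 CPM. Of 14 RING finger relatives and TRPC channels listed beside Rnf24, 7 were measured and 0 passed, with a median of 0.05. Rnf122 had 6.95 CPM in old D+Q, 9.05 CPM in old vehicle and 8.28 CPM in young, and Rnf128 had 101, 89.9 and 88.2 CPM. Of 10 SOX genes 4 were measured and 0 passed. Sox13 had a ratio of -0.36 (-0.65 to -0.07), on 16.2 CPM in old D+Q and 20.9 CPM in old vehicle, against 16.2 CPM in young, and Sox4 had 6.42, 5.03 and 7.37 CPM. In the S3 gate, 2 of 10 measured FGF genes were lower and 0 higher, beside 9.91% and 8.33% of all genes. In cluster 9, 1 of 10 was lower and 0 higher, beside 7.46% and 7.53%. Spred2 was 1.5-fold lower in both, at -0.61 (-1.17 to -0.06) in the S3 gate and -0.76 (-1.22 to -0.31) in cluster 9, the only one of the measured feedback and target genes past that limit there. Of the RING finger and TRPC genes 1 of 7 was lower in the S3 gate and 0 in cluster 9, and of the SOX genes 0 of 3 passed in the S3 gate and 1 of 3, Sox5, was higher in cluster 9. The same shares over all genes stand beside these counts.

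The genes most like each of the 6 were sought by Pearson's r of log2(CPM + 1) over 24 points, 8 gated cell sets in each of 3 libraries, among 12286 genes. The points share their libraries, and the sets share any RNA released into the suspension, so r is a description. The closest to Cyp7b1 were Rnf24 (0.97), Atp11a (0.96) and Mep1b (0.94), and the closest to Rnf24 were Atp11a (0.98), Cyp7b1 (0.97) and Mep1b (0.96). Bcat1 was closest to Cyp7b1 (0.93), Atp11a (0.92) and Rnf24 (0.92). Sox2ot was closest to a gene known only by the identifier ENSMUSG00000121353 (0.95), Mfsd2a (0.94) and Acsm3 (0.94). Fgf1 was closest to Ghr (0.98), Wwp1 (0.97) and Aadat (0.96), and Gramd1b to Trps1 (0.96), Nceh1 (0.95) and Fgf1 (0.94). Atp11a was itself one of the 10 S3 gate markers. Among the 15 pairs of the 6 genes, r was lowest between Bcat1 and Gramd1b (0.72) and highest between Cyp7b1 and Rnf24 (0.97).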

How the data were processed

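The deposited matrices hold raw counts of molecules per gene and barcode, which the authors did not normalise; per the labels' protocols they come from 3′ MobiCube libraries. No aligner or barcode filter is given in the sources used here. The submitters' processing notes name GRCm39 and mm10 with no roles, so no coordinates are taken from the files.

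Barcodes over 50% mitochondrial counts were left out (149 old D+Q, 82 old vehicle and 385 young). Scrublet's own threshold called 1, 0 and 2 barcodes, so those above the score quantile of 0.8% per 1000 barcodes were left out instead (464, 244 and 496). Clusters used 2000 variable genes, 30 components, 15 neighbours and resolution 1 (scanpy 1.11.5, igraph 0.11.9, Python 3.11.15), without the 6 genes. A class outside the proximal tubule needed a mean marker z of 0.8 and 3 markers; the proximal tubule gate needed 1% of counts from its markers and no other class. The S1 gate took cells with an S3-minus-S1 score of -0.4 or less. Cells with 2 classes or none entered no gate. These limits were set after the marker values were seen, and cell names rebuilt in this way may differ from the study's own.

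Counts were summed per library and cell set and scaled to CPM. Levels have exact Poisson, ratios exact conditional binomial and shares exact Clopper-Pearson 95% intervals. A gene was measured where its libraries summed to 30 counts and averaged 5 CPM, and counted at 1.5-fold with a prior of 0.5 counts. With 1 library per group no test was run. Ratios and intervals were tested on simulated data. The 6 genes, the 9 gene lists and the markers were chosen with earlier results of these data known. From each list the text names the 2 to 4 genes with the largest absolute ratio of old D+Q to old vehicle in the proximal tubule gate, and others only as stated, except 1 gene that is not reported here; 16 of the 17 sterol carriage genes are in the files. Alternatives changed the scaling (TMM with edgeR 4.0.16 in R 4.3.3), filters, gates, depth and fold.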

Additional observations from a re-analysis of the deposited data

Results flagged for a closer look

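Of the 6 genes, 2 had ratios of old D+Q to young on opposite sides of 0 in different cell classes, each with an interval that left out 0. Gramd1b, the cholesterol carrier, gave a log2 ratio of 0.90 (0.64 to 1.17) in thick ascending limb cells, on 325 CPM in old D+Q and 174 CPM in young, and -0.73 (-1.49 to -0.01) in stromal cells, on 65.9 CPM (26 counts) in old D+Q and 110 CPM (46 counts) in young. Rnf24, the RING finger protein, gave 0.55 (0.18 to 0.92) in thick ascending limb cells, on 149 CPM in old D+Q and 102 CPM in young, and -1.20 (-2.14 to -0.32) in stromal cells, on 40.6 CPM (16 counts) in old D+Q and 93.0 CPM (39 counts) in young. The difference between the classes was not tested, since each class has 1 library per group. Cluster 9 cells were 2.86% of thick ascending limb cells in old D+Q and 2.87% in young, and 0% of stromal cells in both. Their part in these ratios was not tested. In cluster 9 the same ratio was 0.76 for Gramd1b and -0.05 for Rnf24.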

How the results depend on the processing

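No paired analysis was possible because each group has 1 library. The counts of genes at 1.5-fold in the proximal tubule gate stayed within 1.5 times under every filter, scaling, gate and depth tried. At a 2-fold limit, 1 gene (Cyp7b1) was higher in old vehicle than in young and 1 (Bcat1) was lower in old D+Q than in young in that gate. In the S3 gate, the 2-fold limit gave 1 gene lower in old D+Q than in old vehicle (Bcat1), 0 higher in old vehicle than in young and 1 lower in old D+Q than in young (Bcat1). The stricter gate gave 0 genes higher in old vehicle than in young there, and thinning gave 1 (Gramd1b). Bcat1 and Sox2ot stayed over 1.5-fold lower in old D+Q than in old vehicle in both gates under all alternatives that recomputed the ratio, at log2 -1.89 to -1.06 and -1.19 to -0.67. Cyp7b1 fell short of 1.5-fold in the S3 gate with the stricter gate, at -0.47. Of the single ratios recomputed, 318 lay within and 60 left the counting interval of the reported value, and 0 of those past 1.5-fold turned their sign. The cause was not tested.

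The share of proximal tubule cells in the S3 gate depended on the gate. It was 2.07% in old D+Q, 2.81% in old vehicle and 3.16% in young with the stricter gate, 14.6%, 19.7% and 19.1% with clusters in place of the gate, 10.3%, 12.7% and 12.5% without Cyp4b1, the marker with most counts, and 4.99%, 5.93% and 5.56% after thinning. An alternative chosen after seeing the data, without Cyp4b1 and Slc22a30, gave 10.4%, 13.3% and 12.9%. Old D+Q had the lowest share in each. With no floor on counts, the listed genes past 1.5-fold between old D+Q and old vehicle were 6 lower and 5 higher in the proximal tubule gate, against 2 and 0 with it, and 20 lower and 16 higher in the S3 gate, against 10 and 6. Bcat1 and Sox2ot had 1 to 45 counts per library in each class outside the proximal tubule, where only wide intervals could be given.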
